A study of Mus musculus with 8 samples.

Results

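The comparison described here is that of cells carrying histone H3 K36M with WT cells on day 8 of reprogramming, with the medium, Repsox or TGF-beta, as a covariate. The genes of interest were those that differed in the same direction in both media. A gene was counted as shared when 3 tests called it in the same direction at an adjusted p below 0.05. These were the comparison over all 8 libraries with medium as a covariate, the comparison of 2 K36M with 2 WT libraries under Repsox, and the same under TGF-beta. Of 15789 genes tested, 5672 (35.9%) were shared, of which 2911 (18.4% of those tested) were higher and 2761 (17.5%) were lower in K36M.

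RNA was sequenced from mouse embryonic fibroblasts that were being converted to pluripotent stem cells by Oct4, Klf4, Sox2 and Myc, together called OKSM, in a medium that the labels name AGi. Each group had 2 libraries. WT cells, which some labels call H3, received either 250 nM Repsox, a small molecule that inhibits ALK5, the type I receptor kinase for TGF-beta, or 2.5 ng/ml TGF-beta1. K36M cells, in which lysine 36 of a histone H3 is replaced by methionine, received the same 2 treatments. All 4 groups therefore shared the fibroblast origin, the 4 reprogramming factors, the base medium and the day. No group without either treatment was analysed here. The labels do not name the H3 variant or the promoter that drives it, the strain of the fibroblasts, or whether libraries of the same group stem from different cultures or embryos. The p-values may therefore measure only a technical spread between libraries.

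Methyl groups on lysine 36 of histone H3 are laid down by NSD1, NSD2 and ASH1L, which write the dimethyl mark, and by SETD2, which writes the trimethyl mark over the bodies of transcribed genes. They repel the Polycomb complex PRC2 and recruit the DNA methyltransferases DNMT3A and DNMT3B. The K36M protein, known from chondroblastoma, inhibits these enzymes and so lowers the mark on histones that are not themselves mutated. During reprogramming, fibroblasts first lose their mesenchymal programme and become epithelial, a step that TGF-beta opposes and inhibitors of its receptor favour.

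Among the shared genes that rose, those stimulated by interferon and those of the germline often held a known short sequence near their start, and windows of 100 bases around it are shown for 6 of them to let the letters be read beside the values. The promoters were taken from RefSeq, as 250 bases before to 50 bases after the start on GRCm38.p6, and each window was then found at 1 place in mm9, whose coordinates are given. Capitals mark, on both strands, the core of the interferon-stimulated response element, GAAA followed by any 2 bases and GAAA, in the first 4 sequences and the E-box CACGTG in the last 2. In the Rsad2 and Stat2 windows the element lies on the other strand and is read as its complement, and in the Ddx60 window it occurs at 2 positions.
Oas3: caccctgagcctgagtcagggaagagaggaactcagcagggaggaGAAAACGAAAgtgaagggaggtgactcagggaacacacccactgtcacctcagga
Rsad2: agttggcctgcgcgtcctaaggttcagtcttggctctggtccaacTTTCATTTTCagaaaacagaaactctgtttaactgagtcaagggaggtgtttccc
Ddx60: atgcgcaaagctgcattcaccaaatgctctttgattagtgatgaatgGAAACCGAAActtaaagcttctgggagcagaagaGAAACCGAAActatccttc
Stat2: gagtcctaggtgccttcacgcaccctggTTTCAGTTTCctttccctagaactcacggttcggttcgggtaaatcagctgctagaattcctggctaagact
Sycp1: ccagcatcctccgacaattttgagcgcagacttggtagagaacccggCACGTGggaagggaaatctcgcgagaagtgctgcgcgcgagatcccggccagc
Mov10l1: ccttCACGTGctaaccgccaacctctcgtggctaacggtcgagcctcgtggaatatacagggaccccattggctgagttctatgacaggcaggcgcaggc
The windows lie on mm9 at chr5:121227689-121227788, minus strand, for Oas3, at chr12:27141383-27141482, minus strand, for Rsad2, and at chr8:64406784-64406883, plus strand, for Ddx60. That of Stat2 is at chr10:127707304-127707403, plus strand, that of Sycp1 at chr3:102740065-102740164, minus strand, and that of Mov10l1 at chr15:88813174-88813273, plus strand.

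Of the 32 interferon-stimulated genes that were shared higher, 26 had a promoter in the RefSeq table, and 17 of these (65.4%) held the interferon element. The element was present in 3.49% of all 27025 promoters of that table. Among 13 other tested genes of the same list that were not shared higher, 5 held it (38.5%), so the element was not limited to the shared members. Of the 33 shared germline genes, 29 had a promoter, and 10 of them (34.5%) held the E-box, against 7.24% of all promoters and 9.93% of those of tested genes. Here too the germline genes that were not shared held it about as often, at 4 of 11 (36.4%). A match describes the letters in the window and does not show that a factor binds there. Over all shared genes the check was void, because only 4306 of the 5672 had an entry in the promoter table, which is under 80%.

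The 8 libraries held 10928302 to 15594217 counts each. In a principal component analysis, 67.6% of the variance fell on component 1 and 18.3% on component 2. H3f3a and H3f3b encode histone H3.3, and a count does not separate transcripts with the mutation from those without, so neither checks the label. H3f3a read 101 and 102 CPM in WT and 57.3 and 56.5 CPM in K36M under Repsox, and 95.2 and 100 CPM in WT and 90.2 and 84.5 CPM in K36M under TGF-beta. H3f3b read 247 and 246 CPM in WT and 266 and 269 CPM in K36M under Repsox, and 221 and 221 CPM in WT and 339 and 304 CPM in K36M under TGF-beta. Neither gene was shared, since each was called in 1 medium only, although H3f3a was also called lower under TGF-beta with RLE factors (adjusted p = 0.0496) and without WT Repsox replicate 1 (adjusted p = 0.0371) or 2 (adjusted p = 0.0432). Markers of the starting fibroblasts, of epithelial cells and of pluripotent cells differed between the genotypes as well. The summed level of 9 fibroblast markers was 3477 to 3755 CPM in WT and 206 to 241 CPM in K36M under Repsox, and 10619 to 11883 CPM in WT and 901 to 913 CPM in K36M under TGF-beta. The summed level of 7 epithelial markers was 1826 to 1912 CPM in WT and 4205 to 4380 CPM in K36M under Repsox, and 60.9 to 97.1 CPM in WT and 3016 to 3089 CPM in K36M under TGF-beta. The summed level of 7 pluripotency markers was 820 to 977 CPM in WT and 1089 to 1115 CPM in K36M under Repsox, and 19.7 to 30.2 CPM in WT and 677 to 684 CPM in K36M under TGF-beta. The gap between the genotypes was thus small under Repsox for the pluripotency markers. No marker in the table was at 0 in every library. In RNA from whole cultures, fewer cells of a type and less RNA per cell cannot be told apart, which holds for every result below.

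The reprogramming factors themselves were among the shared genes. All 4 were lower in K36M in each medium, although counts cannot separate the introduced copies from the cells' own genes. Pou5f1, which encodes Oct4, read 420 and 375 CPM in WT and 209 and 206 CPM in K36M under Repsox, and 435 and 416 CPM in WT and 312 and 309 CPM in K36M under TGF-beta. Klf4 read 481 and 445 CPM in WT and 177 and 173 CPM in K36M under Repsox, and 690 and 687 CPM in WT and 194 and 221 CPM in K36M under TGF-beta. For each of the 4 factors every K36M library lay below every WT library. With medium as a covariate, Pou5f1 fell by 0.70 ± 0.12 on the log2 scale (SE, adjusted p = 0.00255), Sox2 by 1.10 ± 0.19 (adjusted p = 0.00286), Klf4 by 1.57 ± 0.10 (adjusted p = 3.38e-05) and Myc by 1.54 ± 0.08 (adjusted p = 1.62e-05). The part of these lower factor levels in the other differences was not tested.

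With medium as a covariate, 3774 genes were higher in K36M (23.9% of those tested) and 3561 were lower (22.6%). Under Repsox alone 28.8% were higher and 26.9% lower, and under TGF-beta alone 36.4% were higher and 33.9% lower. The genes shared higher were 18.4% of all tested genes and 64.0% of the genes called higher under Repsox. They were 50.7% of those called higher under TGF-beta. The genes shared lower were 17.5% of all tested genes, 64.9% of the genes called lower under Repsox and 51.5% of those called lower under TGF-beta. Of the genes called in each medium, 81.7% went the same way in both. The genotype comparisons under Repsox and under TGF-beta have no library in common, and their log2 fold changes had a Pearson correlation of 0.611 and a Spearman correlation of 0.568 across genes, which are not independent replicates.

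**Figure D1:**
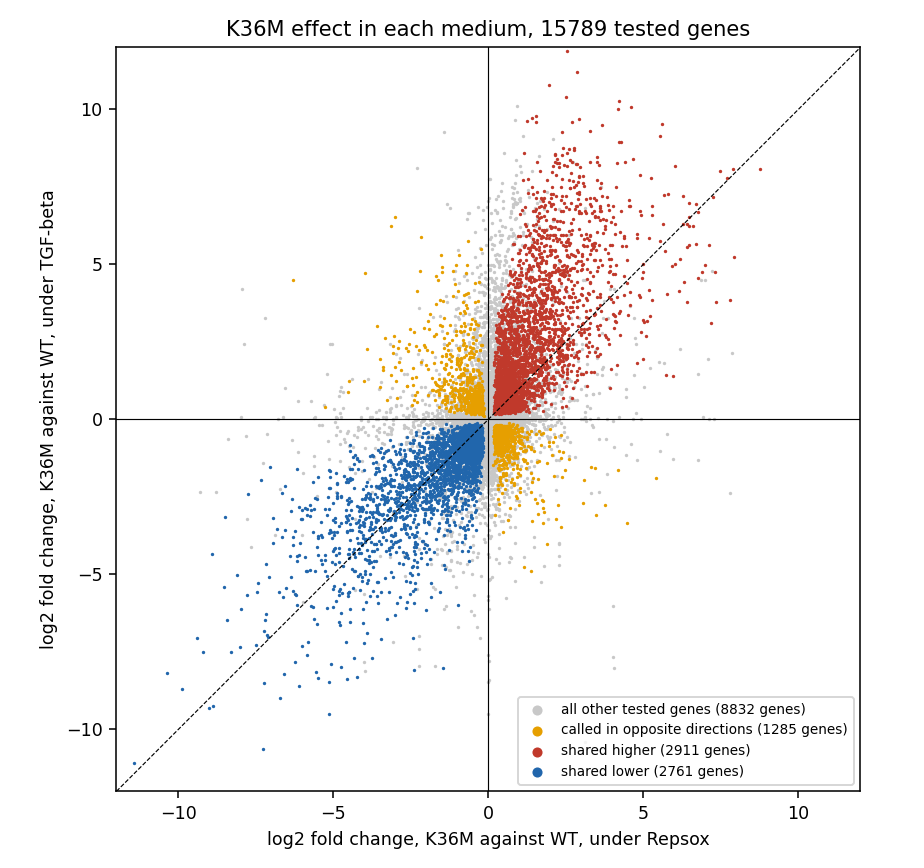
Each point is 1 of 15789 tested genes, with its log2 fold change of K36M against WT under Repsox on the horizontal axis and under TGF-beta on the vertical axis. The 2911 genes shared higher (red) lie more often above the dashed line of equal change than below it, the 2761 genes shared lower (blue) lie closer around it, and 1285 genes called in opposite directions are in orange.

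The same direction did not mean the same size. The median log2 fold change of the genes shared higher was 1.00 under Repsox and 1.88 under TGF-beta, and that of the genes shared lower was -1.06 under Repsox and -1.29 under TGF-beta. Over all tested genes the medians were 0.04 and 0.05. The interaction, which tests whether the K36M effect differs between the media, was called for 51.0% of all tested genes and for 1507 of the genes shared higher. Of those 1507, the effect was larger under TGF-beta for 1332 and larger under Repsox for 175. Among the genes shared lower it was called for 1235, with 820 larger under TGF-beta and 415 larger under Repsox. At least 4-fold in both media were 578 of the genes shared higher and 606 of those shared lower. All 4 K36M libraries lay above all 4 WT libraries for 17.5% of tested genes and below them for 15.9%, whatever the medium. Protein-coding genes were shared higher in 19.3% and lower in 18.3% of cases, and pseudogenes in 6.14% and 6.73%.

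The transcription factors that define mesenchyme were lower in K36M in both media. Of 35 tested genes of this group, 23 (65.7%) were shared lower and none was shared higher, and the median log2 fold change was -2.65 under Repsox and -2.50 under TGF-beta. Prrx1, a homeobox factor of limb and connective tissue mesenchyme (chromosome 1, 165175247 to 165243841 on mm9), read 230 and 276 CPM in WT with Repsox, 111 and 132 CPM in WT with TGF-beta, 7.18 and 10.9 CPM in K36M under Repsox and 4.84 and 5.16 CPM in K36M under TGF-beta. Every K36M library lay more than 10-fold below the lowest WT library. Prrx1 fell by 4.82 ± 0.14 (log2, SE; adjusted p = 2.51e-17) under Repsox and by 4.61 ± 0.16 (adjusted p = 8.39e-17) under TGF-beta, and the interaction was not called (adjusted p = 0.483). Zeb2, a zinc finger repressor of epithelial genes, read 67.9 and 64.2 CPM in WT and 2.44 and 4.26 CPM in K36M under Repsox, and 104 and 119 CPM in WT and 5.94 and 6.2 CPM in K36M under TGF-beta. It fell by 4.33 ± 0.16 under Repsox (adjusted p = 7.07e-16) and by 4.20 ± 0.14 under TGF-beta (adjusted p = 6.06e-17). The shared members also included Snai1, Snai2, Twist1, Runx1, Runx2, Tbx15, Tbx18, Ebf1 and Hmga2, which were chosen for mention after their values were seen. Runx1, a factor of blood and mesenchyme, fell by 1.87 ± 0.10 under Repsox (adjusted p = 2.4e-13) and by 2.34 ± 0.09 under TGF-beta (adjusted p = 6.16e-16), and Hmga2, a chromatin protein of growing embryonic tissue, fell by 1.18 ± 0.09 (adjusted p = 1.5e-10) and by 1.35 ± 0.09 (adjusted p = 1.44e-11). Osr1, a zinc finger factor of early mesenchyme, had 40 counts in WT under Repsox and 28 in WT under TGF-beta, and 0 in all 4 K36M libraries. It was at least 13.1-fold lower under Repsox and at least 8.86-fold lower under TGF-beta.

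Hox genes, which record position along the body axis and stay on in cultured fibroblasts, mostly fell. Of 33 tested Hox genes 25 (75.8%) were shared lower and 1 was shared higher. Their median log2 fold change was -2.80 under Repsox and -2.04 under TGF-beta. The decreases lay mainly in the Hoxa, Hoxb and Hoxc clusters. Of the Hoxd cluster only Hoxd3 was shared lower. Hoxd8 and Hoxd10 were called under Repsox only, Hoxd4 under TGF-beta only and Hoxd9 in neither medium. Under TGF-beta 4 Hox genes were called higher. Hoxc8 (chromosome 15, 102821053 to 102824698 on mm9) read 22.5 and 28.3 CPM in WT and 1.65 and 2.9 CPM in K36M under Repsox, and 128 and 127 CPM in WT and 10.3 and 11.4 CPM in K36M under TGF-beta. The levels in both genotypes were higher under TGF-beta, but the genotypes did not overlap. Hoxc8 fell by 3.51 ± 0.19 (adjusted p = 5.22e-13) under Repsox and by 3.56 ± 0.14 (adjusted p = 3.64e-16) under TGF-beta. Hoxa7 had 3 counts in K36M under Repsox against 107 in WT, a ratio of 35.1 with an exact 95% interval of 11.7 to 173, and fell by 4.25 ± 0.29 under TGF-beta (adjusted p = 1.13e-11).

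Genes of the extracellular matrix made up a further group of shared decreases. Of 24 tested collagen chains 16 (66.7%) were shared lower and none higher, with medians of -3.12 under Repsox and -2.74 under TGF-beta. Col6a1, a chain of the beaded filament collagen, read 613 and 597 CPM in WT and 25.7 and 31.4 CPM in K36M under Repsox, and 940 and 1019 CPM in WT and 77.1 and 87.5 CPM in K36M under TGF-beta. It fell by 4.41 ± 0.09 under Repsox (adjusted p = 8.78e-20) and by 3.57 ± 0.09 under TGF-beta (adjusted p = 2.15e-19). Col1a2, a chain of the main collagen of connective tissue, read 299 and 234 CPM in WT and 25.7 and 28.6 CPM in K36M under Repsox, and 3031 and 3545 CPM in WT and 172 and 171 CPM in K36M under TGF-beta. The K36M libraries under TGF-beta lay below the WT libraries under Repsox. Col1a2 fell by 3.30 ± 0.10 (adjusted p = 5.03e-17) and by 4.26 ± 0.10 (adjusted p = 8.56e-20), and Col5a2, which helps to set the width of collagen fibrils, by 3.99 ± 0.13 (adjusted p = 1.02e-16) and by 4.99 ± 0.10 (adjusted p = 1.32e-20), under Repsox and TGF-beta respectively.

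Of 35 tested matrix glycoproteins and proteoglycans, 23 (65.7%) were shared lower and 3 were shared higher, the latter being Fbln1, Mfap4 and Nid2. Thbs1, a secreted glycoprotein that can activate latent TGF-beta (chromosome 2, 117937612 to 117952869 on mm9), read 1295 and 1329 CPM in WT and 61.7 and 82.1 CPM in K36M under Repsox, and 14933 and 15756 CPM in WT and 433 and 484 CPM in K36M under TGF-beta. It fell by 4.19 ± 0.09 under Repsox (adjusted p = 9.72e-20) and by 5.07 ± 0.09 under TGF-beta (adjusted p = 2.4e-21). Thbs2, its relative, read 555 and 542 CPM in WT and 17.6 and 18.2 CPM in K36M under Repsox, and 324 and 338 CPM in WT and 10 and 16 CPM in K36M under TGF-beta. In WT, Thbs1 read higher and Thbs2 lower under TGF-beta than under Repsox, and within each medium the genotypes lay apart for both genes. Among 29 matrix proteases, inhibitors and matrix-modifying enzymes, 17 (58.6%) were shared lower, and P4ha2, a collagen prolyl hydroxylase, was shared higher. Loxl3, an enzyme that crosslinks collagen, fell by 4.48 ± 0.14 under Repsox (adjusted p = 3.71e-17) and by 3.90 ± 0.13 under TGF-beta (adjusted p = 2.08e-17).

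At the cell surface, 21 of 34 tested mesenchymal receptors and adhesion genes (61.8%) were shared lower, and Csf1r, the receptor of colony stimulating factor 1, was the 1 shared higher. Vcam1, an adhesion receptor for integrins, read 63 and 70.7 CPM in WT and 2.9 and 3.62 CPM in K36M under Repsox, and 120 and 127 CPM in WT and 2.73 and 2.97 CPM in K36M under TGF-beta. Its integrin partner subunit Itga4 read 21.4 and 24.5 CPM in WT and 0.724 and 0.885 CPM in K36M under Repsox, and 25.7 and 22 CPM in WT and 0.234 and 0.262 CPM in K36M under TGF-beta. The K36M libraries of both genes were more than 10-fold below those of WT. Vcam1 fell by 4.37 ± 0.14 (adjusted p = 5.89e-17) and by 5.43 ± 0.14 (adjusted p = 6.07e-19), and Itga4 by 4.83 ± 0.24 (adjusted p = 1.48e-13) and by 6.53 ± 0.31 (adjusted p = 1.44e-14), under Repsox and TGF-beta respectively. Antxr1, a collagen-binding receptor that also binds anthrax toxin, fell by 4.47 ± 0.14 (adjusted p = 8.84e-17) and by 6.11 ± 0.17 (adjusted p = 1.31e-18). Axl and Ddr2, receptor tyrosine kinases for Gas6 and for collagen, fell by close amounts in the 2 media. For Axl these were 2.85 ± 0.08 (adjusted p = 8.15e-18) and 3.13 ± 0.08 (adjusted p = 2.55e-19), and the interaction was still called (adjusted p = 0.0282). For Ddr2, named after its values were seen, they were 3.27 ± 0.11 (adjusted p = 1.64e-16) and 3.26 ± 0.10 (adjusted p = 1.22e-17).

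Not every fibroblast surface gene was shared. Of the same 34 genes 8 were called in opposite directions. Thy1, a surface protein used to follow the loss of fibroblast identity and chosen after its values were seen, read 552 and 550 CPM in WT and 14.7 and 13.9 CPM in K36M under Repsox, and 25.7 and 31.2 CPM in WT and 37.9 and 36.7 CPM in K36M under TGF-beta. It fell by 5.26 ± 0.10 under Repsox (adjusted p = 2.21e-20) and rose by 0.38 ± 0.10 under TGF-beta (adjusted p = 0.00152), and the rise was lost without WT TGF-beta replicate 1 (0.26, adjusted p = 0.0588). Of 28 cytoskeletal genes 11 were shared lower, 2, Tagln2 and Csrp1, were shared higher, and 6 were called in opposite directions. As a group they did not fall under Repsox, where 10 were called higher and 11 lower. Their median log2 fold change was 0.07 under Repsox and -1.18 under TGF-beta. Vim, the intermediate filament of mesenchymal cells, read 1904 and 1808 CPM in WT and 93 and 110 CPM in K36M under Repsox, and 4845 and 5115 CPM in WT and 302 and 331 CPM in K36M under TGF-beta. It fell by 4.19 ± 0.08 (adjusted p = 1.43e-20) and by 3.98 ± 0.08 (adjusted p = 4.96e-21). Cav1, the main protein of caveolae, fell by 3.19 ± 0.13 (adjusted p = 3.03e-15) and by 3.24 ± 0.12 (adjusted p = 1.2e-16).

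**Figure D2:**
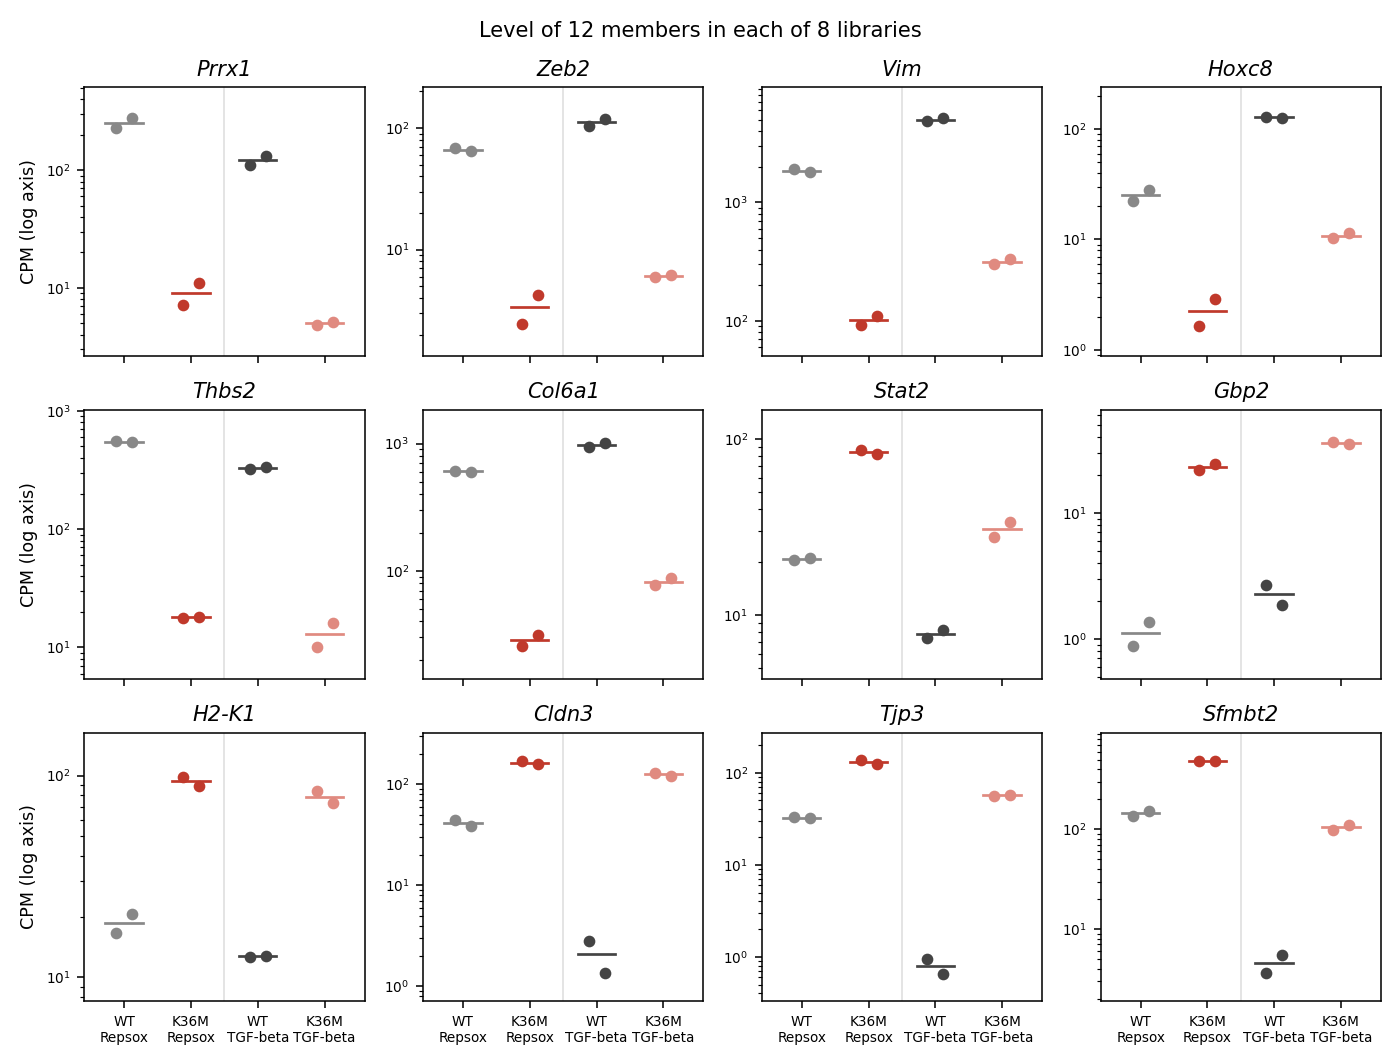
Each panel shows 1 gene in all 8 libraries, as CPM on a log axis, with dots for the 2 libraries of a group and a line for their mean. The first 6 genes are lower in K36M in both media, as for Prrx1 with 4.84 to 10.9 CPM in K36M and 111 to 276 CPM in WT, and the last 6 are higher, with a larger gap under TGF-beta for Cldn3, Tjp3 and Sfmbt2.

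Secreted signals followed the matrix. Of 29 tested chemokines and cytokines of fibroblasts 17 (58.6%) were shared lower and 2, Cxcl10 and Vegfa, were shared higher. Tnfsf11, the cytokine RANKL, had 249 counts in WT with Repsox, 101 in WT with TGF-beta and 0 in every K36M library, and was at least 81.7-fold lower under Repsox and at least 32.0-fold lower under TGF-beta. Ccl7, a chemokine for monocytes, had 1 count in K36M under Repsox against 324 in WT, a ratio of 319 with an exact 95% interval of 56.8 to 12630. Under TGF-beta Ccl7 read 20.6 and 20.5 CPM in WT and 0.391 and 0.175 CPM in K36M. It fell there by 6.11 ± 0.33 (adjusted p = 1.81e-13), a value of -6.80 without K36M TGF-beta replicate 1. Igfbp5, a binding protein of insulin-like growth factors, read 48.9 and 43.1 CPM in WT and 1.12 and 1.61 CPM in K36M under Repsox, and 466 and 491 CPM in WT and 2.27 and 1.75 CPM in K36M under TGF-beta. K36M held it at about the same low level in both media, and WT did not. It fell by 5.09 ± 0.16 (adjusted p = 5.88e-17) and by 7.88 ± 0.14 (adjusted p = 2.19e-21).

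In the TGF-beta pathway itself, 11 of 26 tested ligands, receptors, latency proteins and antagonists (42.3%) were shared lower and 5 (19.2%) higher. The share higher was near the 18.4% of all tested genes. The 11 included the ligands Tgfb2 and Tgfb3, both signalling receptors Tgfbr1 and Tgfbr2, and the latency proteins Ltbp1, Ltbp2 and Ltbp3. The 5 were the receptors Acvr1b and Acvr2b, Ltbp4, Itgb6 and the signal transducer Smad3. Ltbp1, which tethers latent TGF-beta to the matrix, read 329 and 330 CPM in WT and 14.4 and 14.5 CPM in K36M under Repsox, and 133 and 130 CPM in WT and 22 and 23.9 CPM in K36M under TGF-beta. It fell by 4.51 ± 0.09 (adjusted p = 8.16e-20) and by 2.52 ± 0.09 (adjusted p = 1.11e-16). Ltbp2, a relative in microfibrils, fell by 5.13 ± 0.15 (adjusted p = 1.32e-17) and by 2.88 ± 0.14 (adjusted p = 2.68e-14), and Fst, an antagonist of activin, by 5.11 ± 0.16 (adjusted p = 4.83e-17) and by 3.59 ± 0.13 (adjusted p = 1.04e-16). These 3 decreases were larger under Repsox, with the interaction called at adjusted p = 2.13e-11 for Ltbp1, 4.82e-09 for Ltbp2 and 1.2e-05 for Fst.

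Of 27 tested response genes of TGF-beta and YAP 14 (51.9%) were shared lower and none was shared higher, while 5 were called in opposite directions, among them Skil, Amotl2, Bhlhe40 and Id2. Tgfbi, a secreted matrix protein named for its induction by TGF-beta, read 61.7 and 63.5 CPM in WT and 9.28 and 12.5 CPM in K36M under Repsox, and 73.8 and 91.9 CPM in WT and 9.06 and 10.7 CPM in K36M under TGF-beta. It fell by 2.53 ± 0.14 (adjusted p = 6.89e-13) and by 3.08 ± 0.14 (adjusted p = 1.15e-14). Among 11 tested AP-1 factors, which hold open the enhancers of somatic cells, Fosb, Fosl1, Fosl2, Jun and Junb were shared lower and Fos, Jund and Batf3 were shared higher. The call of Batf3 under TGF-beta (2.31, adjusted p = 0.0117) was lost without WT TGF-beta replicate 2 (1.79, adjusted p = 0.0974). Jun read 120 and 118 CPM in WT and 64.1 and 56.8 CPM in K36M under Repsox, and 239 and 228 CPM in WT and 114 and 113 CPM in K36M under TGF-beta. It fell by 0.97 ± 0.08 (adjusted p = 1.47e-09) and by 1.04 ± 0.08 (adjusted p = 1.15e-10). Fosl1 fell further, by 3.84 ± 0.29 (adjusted p = 1.21e-10) and by 3.14 ± 0.25 (adjusted p = 1.58e-10).

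Genes stimulated by interferon rose in K36M in both media. Of 50 tested, 32 (64.0%) were shared higher and 1, Ifitm3, was shared lower, and a further 11 were called only under Repsox. The median log2 fold change was 2.68 under Repsox and 1.99 under TGF-beta. Gbp2, an interferon-induced GTPase (chromosome 3, 142283566 to 142300972 on mm9), read 0.876 and 1.36 CPM in WT and 21.9 and 24.5 CPM in K36M under Repsox, and 2.67 and 1.87 CPM in WT and 36.3 and 35.6 CPM in K36M under TGF-beta. It rose by 4.38 ± 0.22 (adjusted p = 2.21e-13) and by 4.0 ± 0.20 (adjusted p = 3.41e-14), and the interaction was not called (adjusted p = 0.402). Oas3, the first of the promoters printed, encodes an enzyme that makes a signal for RNA decay when it senses double-stranded RNA, and read 0.27 and 0 CPM in WT and 10.1 and 9.49 CPM in K36M under Repsox, and 0.344 and 0.287 CPM in WT and 9.22 and 11.8 CPM in K36M under TGF-beta. It rose by 6.01 ± 0.46 under Repsox (adjusted p = 2.1e-10) and by 5.02 ± 0.41 under TGF-beta (adjusted p = 2.77e-10). With so few counts in WT the Repsox value for Oas3 depended on single libraries, at 9.99 without WT Repsox replicate 1 and 5.13 without WT Repsox replicate 2.

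Rsad2, which encodes the antiviral protein viperin, had 218 counts in WT and 4530 in K36M under Repsox, and 0 in WT and 72 in K36M under TGF-beta. It rose by 4.40 ± 0.12 under Repsox (adjusted p = 1.32e-17) and was at least 25.3-fold higher under TGF-beta. Ifi27l2a, a small mitochondrial protein, had 0 counts in all 4 WT libraries and 113 and 63 in K36M under Repsox and under TGF-beta, which put it at least 38.3-fold and at least 22.1-fold higher. Both genes thus had a lower K36M level under TGF-beta than under Repsox, and for Rsad2 the 2 K36M libraries under TGF-beta, at 2.58 and 3.41 CPM, lay below the WT libraries under Repsox, at 7.89 and 7.63 CPM. Isg15, a ubiquitin-like protein chosen after its values were seen, rose by 3.01 ± 0.20 under Repsox (adjusted p = 1.6e-11) and by 3.09 ± 0.54 under TGF-beta (adjusted p = 2.52e-05), the latter being 4.19 without WT TGF-beta replicate 2. Ddx60, a helicase of the antiviral response, rose by 4.55 ± 0.31 under Repsox (adjusted p = 2.91e-11), and under TGF-beta had 20 counts in K36M and 1 in WT, a ratio of 21.1 with an exact 95% interval of 3.37 to 873. Ifitm3, a membrane protein that blocks virus entry, was abundant in WT at 293 and 295 CPM under Repsox, where K36M read 108 and 104 CPM, and fell by 1.47 ± 0.09 (adjusted p = 7.78e-12) there and by 0.48 ± 0.10 (adjusted p = 0.000143) under TGF-beta.

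The genes that sense nucleic acids or carry the interferon signal did not move as a group. Of 33 tested, 8 (24.2%) were shared higher, 6 (18.2%) were shared lower and 7 were called in opposite directions, with medians of -0.0046 and 0.04. The 8 that rose included Ddx58, Dhx58, Irf7, Irf8, Irf9, Stat2 and Zbp1, and the 6 that fell included Tmem173, Mavs and Irf3, which lie between the sensors and interferon itself. The call of Zbp1 under TGF-beta (1.53, adjusted p = 0.00341) was lost without WT TGF-beta replicate 1 (1.00, adjusted p = 0.0564). Stat2, part of the factor that binds the interferon element, read 20.4 and 21.1 CPM in WT and 85.9 and 82.4 CPM in K36M under Repsox, and 7.4 and 8.19 CPM in WT and 27.6 and 33.7 CPM in K36M under TGF-beta. It rose by 2.02 ± 0.11 (adjusted p = 9.63e-13) and by 1.97 ± 0.14 (adjusted p = 2.05e-11), and every K36M library was above every WT library.

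Of 22 tested genes of MHC class I and antigen processing 11 (50.0%) were shared higher, among them the peptide transporters Tap1 and Tap2. The chaperones Calr, Canx and Pdia3 and the proteasome subunit Psmb10 were shared lower, 4 of the 22 (18.2%), which is near the 17.5% of all tested genes. H2-K1, a classical class I heavy chain, read 16.6 and 20.6 CPM in WT and 98.2 and 88.8 CPM in K36M under Repsox, and 12.7 and 12.8 CPM in WT and 83.8 and 73 CPM in K36M under TGF-beta. It rose by 2.33 ± 0.11 (adjusted p = 7.99e-14) and by 2.62 ± 0.12 (adjusted p = 1.08e-14), with no overlap of the genotypes. Class I heavy chains are near-identical copies of each other and differ between strains, so reads of H2-K1 and its relatives are uncertain in their assignment.

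Germline genes, most of which are silent in somatic cells, were shared higher in 33 of 48 tested (68.8%) and shared lower in none. Their median log2 fold change was 2.49 under Repsox and 4.66 under TGF-beta, or 3.40 with genes at 0 in WT set to their lower bound. A germline gene near 0 in WT, such as Stra8, could pass the filter through K36M alone and could not be called lower. The absence of shared decreases is therefore fixed in part by the filter. Its part in the high share of increases was not tested. Levels stayed low. Sycp1, which joins paired chromosomes in meiosis (chromosome 3, 102622422 to 102740023 on mm9), had 6 counts in WT and 152 in K36M under Repsox, and 0 in WT and 77 in K36M under TGF-beta. In CPM the K36M libraries of Sycp1 read 3.49 and 7.96 under Repsox and 3.05 and 3.32 under TGF-beta, and those of WT at most 0.27. It rose by 4.67 ± 0.57 under Repsox (adjusted p = 4.36e-07), or by 3.97 without K36M Repsox replicate 2, and was at least 27.1-fold higher under TGF-beta. Mov10l1, a helicase of the piRNA pathway, read 0 and 0.755 CPM in WT and 7.97 and 7.16 CPM in K36M under Repsox, and 0.0861 and 0 CPM in WT and 2.81 and 3.06 CPM in K36M under TGF-beta. Its Repsox value of 4.36 ± 0.53 (adjusted p = 3.26e-07) was 3.31 without WT Repsox replicate 1 and 9.64 without WT Repsox replicate 2, and under TGF-beta, with 71 counts against 1, the ratio was 74.8 with an exact 95% interval of 13.0 to 2996.

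Dazl and Stra8 were chosen after their values were seen. Dazl, which binds mRNAs in germ cells, had 17 counts in WT and 221 in K36M under Repsox, and 0 in WT and 20 in K36M under TGF-beta. It rose by 3.69 ± 0.40 under Repsox (adjusted p = 7.09e-08) and was at least 7.03-fold higher under TGF-beta. Stra8, which starts meiosis, had 0 counts in all WT libraries and 39 and 33 in K36M, and was at least 13.2-fold and at least 11.6-fold higher under Repsox and TGF-beta. Striated muscle genes showed the same combination of low level and large ratio, with 10 of 15 tested shared higher and 1, Nebl, shared lower. The limit that the filter sets for germline genes holds for muscle genes near 0 in WT as well. Myod1, Myog, Myf5, Myf6, Pax7 and Ckm of that list were not tested. The summed level of 4 muscle markers, of which 1 was shared higher, differed little under Repsox, at 49.8 to 56.8 CPM in WT and 61.4 to 64.4 CPM in K36M. Under TGF-beta the sum was 24.9 to 27.4 CPM in WT and 80.6 to 81.3 CPM in K36M. Mb, the oxygen-binding protein of muscle, had 3 counts in WT and 165 in K36M under Repsox, a ratio of 55.9 with an exact 95% interval of 18.8 to 274. Under TGF-beta it had 2 and 91, a ratio of 47.9 with an interval of 12.9 to 402. Myl3, a myosin light chain, rose by 4.21 ± 0.41 under Repsox (adjusted p = 1.44e-08) and was at least 99.8-fold higher under TGF-beta.

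Most epithelial junction genes rose in both media and rose further under TGF-beta. Of 38 tested junction and adhesion genes 30 (78.9%) were shared higher and 3, Perp, Cxadr and Itgb4, were shared lower. The median log2 fold change was 1.03 under Repsox and 3.96 under TGF-beta, and the interaction was called, with the larger effect under TGF-beta, for 32 of the 33 shared members. Cldn3, a tight junction protein (chromosome 5, 135462084 to 135463342 on mm9), read 44.6 and 38.9 CPM in WT and 169 and 159 CPM in K36M under Repsox, and 2.84 and 1.36 CPM in WT and 130 and 120 CPM in K36M under TGF-beta. Tjp3, a scaffold of the same junction, read 32.8 and 32.1 CPM in WT and 139 and 126 CPM in K36M under Repsox, and 0.947 and 0.646 CPM in WT and 55.6 and 57.8 CPM in K36M under TGF-beta. In both cases the lowest libraries were those of WT under TGF-beta. Cldn3 rose by 1.97 ± 0.11 (adjusted p = 4.8e-13) and by 5.93 ± 0.17 (adjusted p = 1.98e-18), and Tjp3 by 2.03 ± 0.09 (adjusted p = 3.77e-14) and by 6.16 ± 0.18 (adjusted p = 3.48e-18), under Repsox and TGF-beta respectively.

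Cdh1, the epithelial cadherin, was chosen after its values were seen, and shows how the 2 kinds of test can differ. It read 666 and 680 CPM in WT and 1383 and 1333 CPM in K36M under Repsox, and 41.1 and 23.1 CPM in WT and 1110 and 1127 CPM in K36M under TGF-beta. It rose by 1.01 ± 0.11 under Repsox (adjusted p = 8.81e-08) and by 5.14 ± 0.14 under TGF-beta (adjusted p = 1.45e-18). With medium as a covariate, where 1 effect must serve both media, the value was 3.05 ± 0.93 (adjusted p = 0.0304). That call was lost without any 1 of the 4 TGF-beta libraries, at 2.32 without WT TGF-beta replicate 1 (adjusted p = 0.109), 2.17 without WT TGF-beta replicate 2 (adjusted p = 0.0747), 2.83 without K36M TGF-beta replicate 1 (adjusted p = 0.0509) and 2.83 without K36M TGF-beta replicate 2 (adjusted p = 0.0514). The value was 3.86 without K36M Repsox replicate 1 and 3.87 without K36M Repsox replicate 2. It was lost as well with the replicate number as a block (adjusted p = 0.0543). Of 12 tested keratins 9 were shared higher and Krt6a lower, and of 19 epithelial transcription and splicing factors 10 were shared higher and Ehf lower. Of the keratins 1, and of these factors 2, were called in opposite directions, and 2 of the shared factors changed more under Repsox. Krt80 rose by 2.38 ± 0.16 (adjusted p = 1.4e-11) and by 2.73 ± 0.22 (adjusted p = 2.81e-10), so that this keratin rose by close amounts in the 2 media (interaction adjusted p = 0.323).

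**Figure D3:**
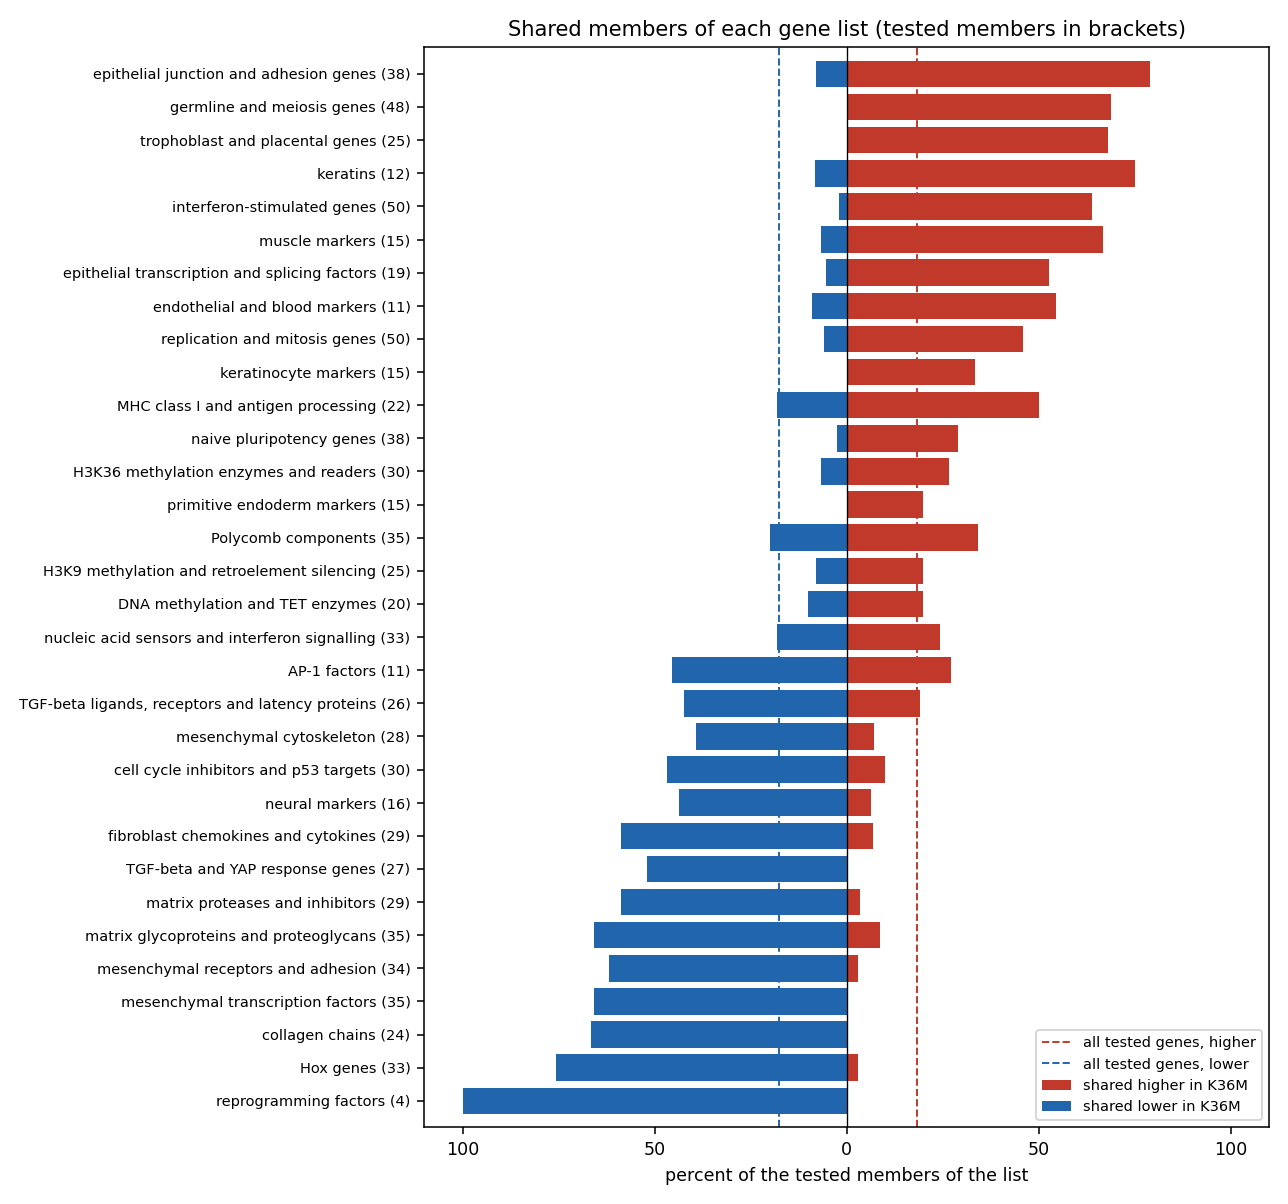
Bars give the percentage of the tested members of each gene list that were shared higher (right, red) or shared lower (left, blue), with the share of all tested genes as dashed lines at 18.4% and 17.5%. Epithelial junction, germline, trophoblast, keratin, interferon-stimulated and muscle lists lie at the top, with 64.0 to 78.9% shared higher, and Hox genes, collagens and mesenchymal factors near the bottom, with 65.7 to 75.8% shared lower. Members with almost no counts in WT could pass the filter through K36M alone and could not be called lower.

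Trophoblast and placental genes were shared higher in 17 of 25 tested (68.0%) and shared lower in none, with medians of 1.4 under Repsox and 3.75 under TGF-beta. A member with almost no counts in WT under TGF-beta, such as Hand1, could not be called lower there. Under Repsox 2 members were called lower. Eomes was lower under Repsox and higher under TGF-beta, Cdx2 was called under TGF-beta only and Elf5 in neither medium. Hand1, a factor of trophoblast giant cells, read 14.9 and 14 CPM in WT and 83.1 and 74.5 CPM in K36M under Repsox, and 0.0861 and 0.144 CPM in WT and 4.45 and 2.53 CPM in K36M under TGF-beta. It rose by 2.45 ± 0.14 under Repsox (adjusted p = 1.09e-12), and under TGF-beta, with 86 counts against 3, the ratio was 30.2 with an exact 95% interval of 9.99 to 149. Sfmbt2, an imprinted Polycomb gene needed in the placenta, rose by 1.75 ± 0.09 (adjusted p = 2.49e-13) and by 4.50 ± 0.13 (adjusted p = 5.48e-18). Of 11 tested endothelial and blood markers 6 were shared higher and Tek lower. Flt1, a receptor of vascular endothelial growth factor that placenta also makes, read 9.17 and 13.1 CPM in WT and 47 and 47.7 CPM in K36M under Repsox, and 3.53 and 4.02 CPM in WT and 59.9 and 56.3 CPM in K36M under TGF-beta.

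Naive pluripotency genes varied more between the media. Of 38 tested, 11 (28.9%) were shared higher and Sall1 was shared lower. A further 7 rose in each medium by its own test but were not called with medium as a covariate, so that 18 of the 38 rose in each medium. Over all tested genes 52 (0.329%) were called in each medium with 1 sign and missed by that fit. Of the remaining pluripotency genes 10 were called under TGF-beta only, 1 under Repsox only and 8 in opposite directions. The median log2 fold change was 0.19 under Repsox and 4.20 under TGF-beta, or 4.05 with genes at 0 set to their bound. Nanog, a core factor of pluripotency chosen after its values were seen, read 130 and 114 CPM in WT and 101 and 107 CPM in K36M under Repsox, a change of -0.23 ± 0.19 (adjusted p = 0.314). This difference was called without WT TGF-beta replicate 1 (adjusted p = 0.0320), without WT TGF-beta replicate 2 (adjusted p = 0.0317) and with no filter on low counts (-0.28, adjusted p = 0.0085). Under TGF-beta it read 13.9 and 3.23 CPM in WT and 103 and 105 CPM in K36M, and rose by 3.66 ± 0.25 (adjusted p = 1.44e-11), or by 2.91 without WT TGF-beta replicate 2 and 5.01 without WT TGF-beta replicate 1. Lin28a, an RNA-binding protein of early embryos, did rise in both media, by 1.43 ± 0.10 (adjusted p = 3.42e-11) and by 5.83 ± 0.16 (adjusted p = 1.38e-18), although its call with medium as a covariate (3.37, adjusted p = 0.0206) was lost without WT TGF-beta replicate 2 (2.64, adjusted p = 0.0651). That value was 2.57 without WT TGF-beta replicate 1, 4.21 without K36M Repsox replicate 1 and 4.22 without K36M Repsox replicate 2.

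**Figure D4:**
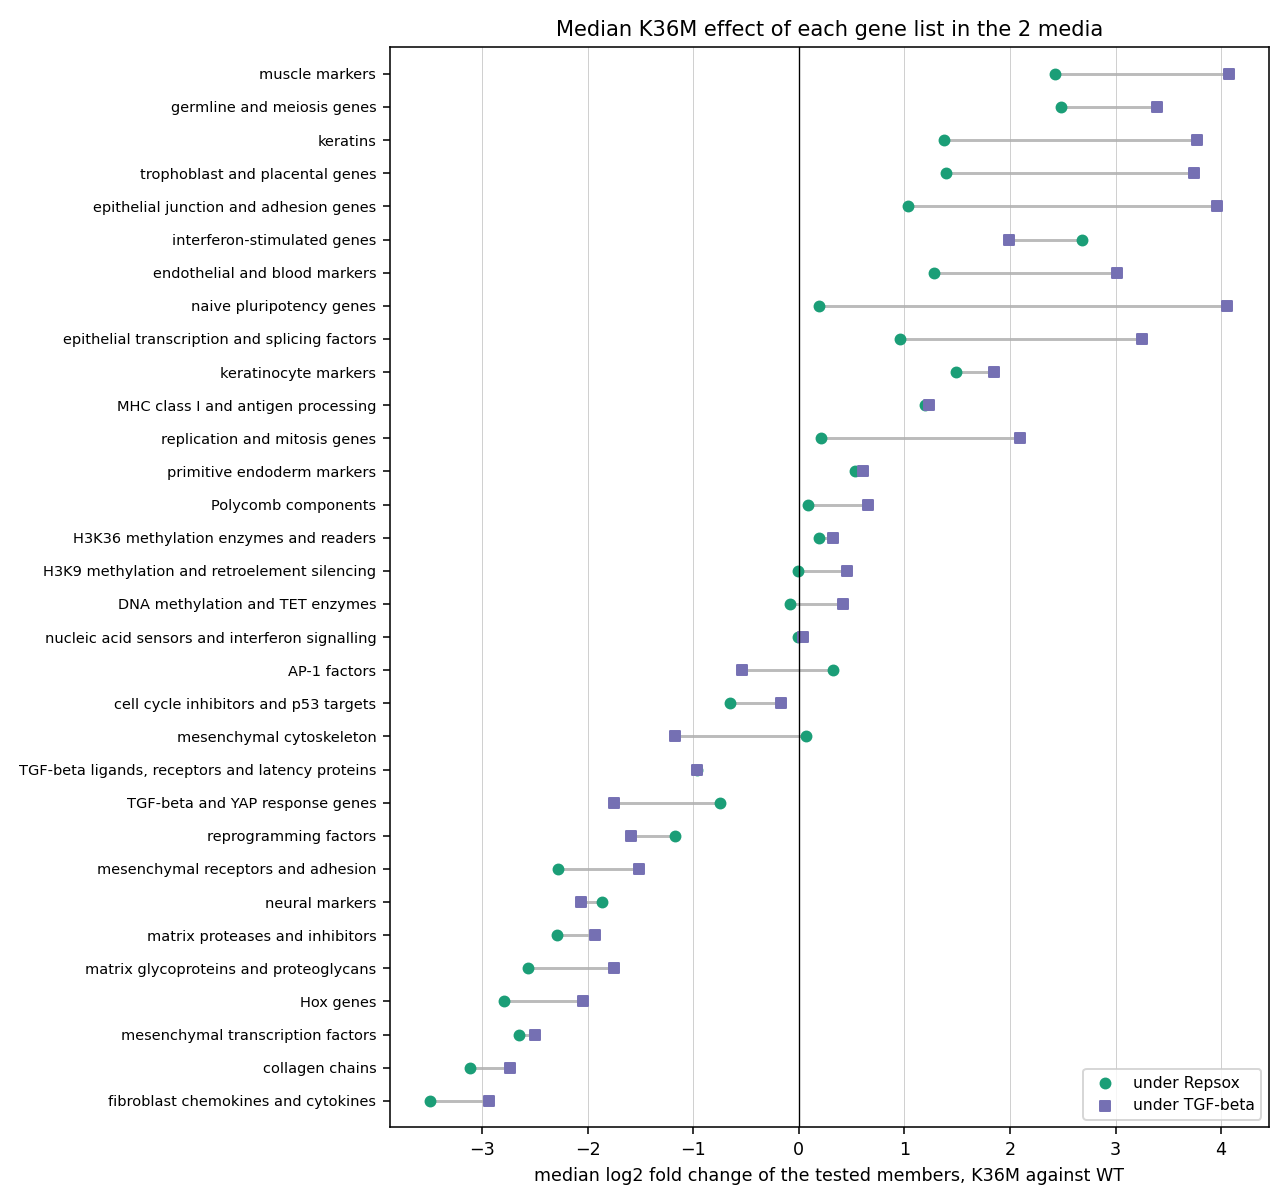
Each line joins the median log2 fold change of K36M against WT of 1 gene list under Repsox (circle) and under TGF-beta (square), with genes at 0 counts in a group set to their bound. Collagens, mesenchymal factors and Hox genes are on the negative side in both media, epithelial junction genes go from 1.03 to 3.96, and naive pluripotency genes from 0.19 to 4.05.

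The genes of growth control split by role. Of 50 replication and mitosis genes 23 (46.0%) were shared higher and 3 were shared lower, these being the D-type cyclins Ccnd1 and Ccnd2 and their kinase Cdk6. Ccnd1 (chromosome 7, 152115836 to 152125774 on mm9) read 728 and 699 CPM in WT and 72.8 and 78.8 CPM in K36M under Repsox, and 568 and 613 CPM in WT and 114 and 114 CPM in K36M under TGF-beta. Ccnd2 read 2114 and 2075 CPM in WT and 116 and 128 CPM in K36M under Repsox, and 3422 and 3718 CPM in WT and 489 and 503 CPM in K36M under TGF-beta. Ccnd1 fell by 3.24 ± 0.07 (adjusted p = 3.31e-19) and by 2.37 ± 0.07 (adjusted p = 8.29e-18), and Ccnd2 by 4.10 ± 0.07 (adjusted p = 3.08e-21) and by 2.85 ± 0.06 (adjusted p = 6.44e-20). The third D-type cyclin, Ccnd3, was shared higher. Cdk6 fell by 1.30 ± 0.09 (adjusted p = 7e-11) and by 1.11 ± 0.09 (adjusted p = 9.89e-11).

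The mitosis genes that rose did so mainly under TGF-beta, and the median of the list was 0.21 under Repsox and 2.09 under TGF-beta. Bub1, a kinase of the spindle checkpoint, read 73.5 and 70.9 CPM in WT and 125 and 129 CPM in K36M under Repsox, and 12 and 12.3 CPM in WT and 123 and 137 CPM in K36M under TGF-beta. The K36M libraries were alike in both media and WT was low under TGF-beta. Bub1 rose by 0.81 ± 0.08 (adjusted p = 2.6e-08) and by 3.42 ± 0.10 (adjusted p = 6.13e-18), and its call with medium as a covariate (2.08, adjusted p = 0.0148) was lost without WT TGF-beta replicate 2 (1.69, adjusted p = 0.050). Of 30 tested inhibitors of the cell cycle and p53 targets 14 (46.7%) were shared lower and Cdkn1b, Cdkn1c and Gadd45b were shared higher. Cdkn1a, the p53 target p21, read 457 and 442 CPM in WT and 146 and 156 CPM in K36M under Repsox, and 1180 and 1155 CPM in WT and 372 and 360 CPM in K36M under TGF-beta. It fell by 1.58 ± 0.06 (adjusted p = 4.48e-15) and by 1.68 ± 0.06 (adjusted p = 3.23e-16), with the interaction not called (adjusted p = 0.368). Cdkn1b, which encodes p27, rose by 0.97 ± 0.09 (adjusted p = 1.11e-08) and by 2.53 ± 0.12 (adjusted p = 8.94e-15).

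Chromatin genes changed less. Of 30 tested enzymes and readers of H3K36 methylation 8 (26.7%) were shared higher and 2 were shared lower, with medians of 0.19 and 0.32. The 2 that fell were Ash1l and Zmynd11, a reader of the mark on H3.3, and those that rose included the methyltransferases Nsd1 and Whsc1, the latter also named Nsd2, and the demethylases Kdm4b and Kdm4c. Zmynd11 fell by 0.75 ± 0.10 (adjusted p = 7.36e-07) and by 0.54 ± 0.09 (adjusted p = 2.26e-05), and Kdm4b rose by 0.88 ± 0.11 (adjusted p = 8.28e-07) and by 0.57 ± 0.12 (adjusted p = 0.000273). Setd2 was called under Repsox only. Of 35 Polycomb components 12 (34.3%) were shared higher, including Suz12, Jarid2 and the PRC2 partner Mtf2, and 7 (20%) were shared lower, including Bmi1. The share lower was near the 17.5% of all tested genes. Rbbp7, a histone-binding subunit of PRC2 and of other complexes, read 273 and 313 CPM in WT and 679 and 703 CPM in K36M under Repsox, and 177 and 177 CPM in WT and 383 and 345 CPM in K36M under TGF-beta. It rose by 1.24 ± 0.07 (adjusted p = 2.9e-12) and by 1.04 ± 0.08 (adjusted p = 3.49e-11). Mtf2 rose by 0.55 ± 0.08 (adjusted p = 9.29e-06) and by 1.24 ± 0.09 (adjusted p = 8.82e-11).

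Of 20 tested DNA methylation and TET genes Dnmt1, Dnmt3l, Tdg and Mbd4 were shared higher and 2, among them Mbd3, were shared lower. The share higher was near the 18.4% of all tested genes, and the share lower was below the 17.5% of all tested genes. A further 4 of the 20 were called in opposite directions, so the list did not stand out from all tested genes as shared higher. The calls of Mbd4 depended on single libraries. Under Repsox (0.41, adjusted p = 0.0265) its call was lost without WT replicate 2 (0.31, adjusted p = 0.131), without K36M replicate 2 (0.24, adjusted p = 0.311) and with DESeq2 (adjusted p = 0.0773), and with medium as a covariate (1.26, adjusted p = 0.0246) it was lost without WT TGF-beta replicate 1 (adjusted p = 0.0775), WT TGF-beta replicate 2 (adjusted p = 0.0810) and K36M TGF-beta replicate 1 (adjusted p = 0.0538). Dnmt1, the maintenance methyltransferase, rose by 0.69 ± 0.08 (adjusted p = 6.14e-08) and by 1.70 ± 0.08 (adjusted p = 1.32e-14). Of 25 genes of H3K9 methylation and retroelement silencing 5 (20%) were shared higher, which is near the share of all tested genes, and Pphln1 and Atrx were shared lower. Daxx, the chaperone that deposits H3.3 together with Atrx, rose by 0.57 ± 0.09 (adjusted p = 2.16e-05) and by 0.73 ± 0.11 (adjusted p = 2.21e-06).

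Lists of other cell types gave 5 of 15 keratinocyte markers shared higher and none lower, 3 of 15 primitive endoderm markers (20%) shared higher and none lower, and 7 of 16 neural markers shared lower with Syp shared higher. The primitive endoderm share is near the 18.4% of all tested genes, and 4 of those 15 were called in opposite directions. The summed level of 4 neural markers, of which 3 were in the table, was 37.0 to 41.2 CPM in WT and 41.2 to 49.3 CPM in K36M under Repsox, and 117 to 124 CPM in WT and 11.0 to 14.6 CPM in K36M under TGF-beta. The summed level of 6 trophoblast markers, of which 3 were shared higher, was 67.1 to 72.3 CPM in WT and 204 to 216 CPM in K36M under Repsox. Under TGF-beta it was 4.13 to 5.17 CPM in WT and 46.2 to 55.7 CPM in K36M. Blood and macrophage markers summed to 22.4 to 23.8 CPM in WT and 76.2 to 78.5 CPM in K36M under Repsox, and to 16.2 to 16.9 CPM in WT and 34.0 to 38.8 CPM in K36M under TGF-beta. Of these 4 markers Csf1r and Cd68 were shared higher, and Ptprc and Tyrobp did not pass the filter. Csf1r is also on the list of mesenchymal receptors above, and Cd68 is not. Whether the sum reflects blood cells was not tested. The part of such cells in the shared changes was not tested.

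Large shared changes were also found outside these lists. Pramef12, of a family expressed in germ cells and early embryos, read 5.26 and 6.19 CPM in WT and 78.7 and 80.8 CPM in K36M under Repsox, and 0.172 and 0.287 CPM in WT and 20.2 and 21.9 CPM in K36M under TGF-beta. It rose by 3.80 ± 0.14 (adjusted p = 4.57e-16) and by 6.43 ± 0.27 (adjusted p = 2.32e-15). Atp2c2, a calcium and manganese pump of secretory epithelia, rose by 3.89 ± 0.20 under Repsox (adjusted p = 2.87e-13), and under TGF-beta, with 230 counts against 2, the ratio was 121 with an exact 95% interval of 33.2 to 1006. Bst1, a surface enzyme that makes cyclic ADP-ribose, rose by 4.17 ± 0.27 under Repsox (adjusted p = 2.38e-11) and was at least 82.9-fold higher under TGF-beta, where WT had 0 counts. The genes whose change was nearly the same size in the 2 media, within 0.25 on the log2 scale, numbered 625 among those shared higher and 795 among those shared lower. Pfkfb3, which drives glycolysis, was one of them and read 28.4 and 33 CPM in WT and 116 and 110 CPM in K36M under Repsox, and 42.2 and 41.9 CPM in WT and 138 and 147 CPM in K36M under TGF-beta. It rose by 1.88 ± 0.09 (adjusted p = 1.11e-13) and by 1.76 ± 0.09 (adjusted p = 7.84e-14). Ndrg1, a gene induced by low oxygen, rose by 2.29 ± 0.09 (adjusted p = 1.76e-15) and by 2.13 ± 0.11 (adjusted p = 5.82e-14), and Gjb5, a connexin of trophoblast and skin, by 2.24 ± 0.13 (adjusted p = 2.22e-12) and by 2.16 ± 0.20 (adjusted p = 1.9e-09).

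The counterpart of the shared genes were 1285 genes called in opposite directions, of which 657 (4.16% of those tested) were higher under Repsox and lower under TGF-beta, and 628 (3.98%) the reverse. Cyp11a1, which starts steroid synthesis, read 7.82 and 6.27 CPM in WT and 30.7 and 30.2 CPM in K36M under Repsox, and 133 and 135 CPM in WT and 37.4 and 38.4 CPM in K36M under TGF-beta. Crabp1, a binding protein of retinoic acid, read 192 and 217 CPM in WT and 15.5 and 18.3 CPM in K36M under Repsox, and 1.29 and 2.58 CPM in WT and 16.3 and 15.9 CPM in K36M under TGF-beta. For both genes K36M read nearly the same level in the 2 media, and WT lay above it in 1 medium and below it in the other.

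Some of the sharpest shared differences were in processed copies of ribosomal protein genes, chosen after their values were seen. The copy named Rps13-ps1 (chromosome 8, 89571619 to 89572074 on mm9) had 325 and 412 counts in WT under Repsox, and 250 and 275 counts under TGF-beta, and 0 in all 4 K36M libraries, and was at least 242-fold and at least 166-fold lower. Rpl34-ps1 (chromosome 6, 71074583 to 71074994) had 127 and 191 counts in WT under Repsox and 138 and 170 in WT under TGF-beta, against 0 and 2 and against 2 and 0 in K36M. Gm8730 (chromosome 8, 105388679 to 105389777) had 1680 to 2462 counts in the WT libraries and 12 to 17 in those of K36M, and fell by 7.13 ± 0.15 under Repsox (adjusted p = 8.16e-20) and by 6.95 ± 0.15 under TGF-beta (adjusted p = 5.71e-20). Gm9000 (chromosome 13, 109460773 to 109461634) had 576 to 754 counts in WT and 4 to 10 in K36M. Gm11942 (chromosome 4, 33051739 to 33052247) went the other way, with 0 to 8 counts in WT and 227 to 353 in K36M.

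The parent genes Rps13 and Rpl34 did not share this pattern, and those of Gm8730, Gm9000 and Gm11942 were not examined. Rps13 read 235 and 247 CPM in WT and 260 and 256 CPM in K36M under Repsox, and 212 and 208 CPM in WT and 326 and 297 CPM in K36M under TGF-beta. Rpl34 was higher in K36M by 0.54 ± 0.09 under Repsox (adjusted p = 3.24e-05) and by 0.58 ± 0.09 under TGF-beta (adjusted p = 7.3e-06). Reads of such copies can be split or shared with the parent gene by the counting, so their assignment is uncertain. The labels do not say whether the WT and K36M fibroblasts came from 1 line or strain, and whether these on and off differences mark a difference in line was not tested. At least 32-fold in both media were 33 genes shared higher and 53 shared lower, of which 4 and 4 were annotated as pseudogenes. Among all 15789 tested genes 342 were annotated as pseudogenes, so these made up a larger part of the 33 and of the 53 than of all tested genes.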

How the data were processed

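RNA depleted of ribosomal RNA was sequenced from 8 libraries, 2 for each of 4 groups. The deposited values are whole-number read counts per gene for 26930 genes, made by the authors with HTSeq 0.11.2 after alignment with STAR 2.5.0 to mm9, per the submitters' processing notes. Those notes also name edgeR. The annotation, the strand setting and the handling of reads with several matches are not given in the sources used here. Library totals ranged from 10928302 to 15594217.

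From these counts, 15789 genes that passed filterByExpr were tested with edgeR 4.0.16 (R 4.3.3), using TMM scaling and the quasi-likelihood F test. The filter keeps a gene that is read in a single group. A gene near 0 in WT could thus pass through K36M alone and could not be called lower. One fit had medium and genotype as terms, and a second had the 4 group means, from which the contrast in each medium and the interaction were taken. P-values were adjusted by Benjamini-Hochberg over all tested genes with a threshold of 0.05. A shared gene passed in the first fit and in each medium with 1 sign. Levels are CPM on TMM-scaled totals, the standard error of a log2 fold change is its absolute value divided by the root of F, and a gene at 0 in a group is given as a bound against 3 counts over that group. Ratios with 1 to 3 counts carry exact 95% intervals, which cover counting error only. The procedure was tested on simulated data.

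The genes to be described and the gene lists were chosen with earlier results of these data known. Named genes were, by rule, the largest shared changes at a minimum level with no overlap of the genotypes, up to 4 shared members of each list, the largest opposite changes, the largest changes of near equal size, the 4 reprogramming factors and both H3.3 genes, and others are said to be chosen after their values were seen. Promoters came from the RefSeq table for GRCm38.p6, and 11754 of the 15789 genes (74.4%) matched an entry. Ifi27l2a, Dhx58, Zbp1 and H2-T10 did not. Alternatives were RLE and upper-quartile scaling, no filter, DESeq2 1.42.0, the replicate number as a block, the mean of the contrasts in the 2 media, a minimum of 2-fold, and leaving out each library.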

Additional observations from a re-analysis of the deposited data

Results flagged for a closer look

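For 45 of 88 genes described in the results, the K36M effect differed between the media by the test of the interaction, which was called for 51.0% of all tested genes. The values below are the log2 fold change under TGF-beta minus that under Repsox, so a positive value marks a more positive change under TGF-beta. Of these genes 38 were shared and differed in size only. Several values were from genes with 0 counts in WT under TGF-beta, and then depend on the constant that edgeR adds, which holds for Rsad2 (3.90), Myl3 (6.06) and Bst1 (5.84).

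Among the genes shared lower, the decrease was larger under TGF-beta for Sox2 (-0.91), Klf4 (-0.33), Runx1 (-0.46), Thbs1 (-0.87), Col1a2 (-0.96), Col5a2 (-1.0), Vcam1 (-1.07), Itga4 (-1.70), Axl (-0.29), Antxr1 (-1.64), Igfbp5 (-2.79) and Tgfbi (-0.54). It was larger under Repsox for Pou5f1 (0.49), Col6a1 (0.84), Loxl3 (0.57), Ltbp1 (1.99), Ltbp2 (2.25), Fst (1.53), Ifitm3 (0.99), Ccnd1 (0.86) and Ccnd2 (1.25). Matrix and latency genes thus lay on both sides.

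Among the genes shared higher, every one with a called interaction among those named rose further under TGF-beta. The junction genes were Cldn3 (3.96), Tjp3 (4.13) and Cdh1 (4.13). The trophoblast, endothelial and pluripotency genes were Hand1 (2.36), Sfmbt2 (2.75), Flt1 (1.84), Csf1r (1.34) and Lin28a (4.40). The genes of the cell cycle and chromatin were Bub1 (2.60), Cdkn1b (1.56), Mtf2 (0.69) and Dnmt1 (1.01), and the others were Atp2c2 (2.87) and Pramef12 (2.63).

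Genes called in opposite directions were Thy1 (5.65), Cyp11a1 (-3.93) and Crabp1 (6.62). Genes called in 1 medium only were H3f3a (0.68), H3f3b (0.42), Nanog (3.90) and Rps13 (0.47). The value of Crabp1 rests in part on low WT counts under TGF-beta, where its log2 fold change of 3.01 became 3.63 without WT replicate 2.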

How the results depend on the processing

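The number of shared genes was 2911 higher and 2761 lower. It was 2885 and 2780 with RLE factors, 3137 and 2564 with upper-quartile factors, 2640 and 2869 with no filter on low counts, and 2494 and 2490 with DESeq2. With at least 2-fold in each medium required, which by construction keeps fewer genes, it was 1331 and 1237. Where the mean of the contrasts in the 2 media took the place of the fit with medium as a covariate, 5914 genes were called higher in place of 3774. The fit with medium as a covariate counts a K36M effect that differs between the media as error. Its common coefficient of variation was 0.268, against 0.0702 in the fit of the group means. The part of this in the number of calls was not tested. The upper-quartile factors moved the median log2 fold change of all genes under TGF-beta from 0.05 to 0.17. Leaving out 1 library at a time gave 2285 to 2785 genes shared higher and 2320 to 2675 shared lower. The ranges were 2740 to 3661 higher and 2815 to 3528 lower with medium as a covariate, 3610 to 4496 and 3540 to 4209 under Repsox, 5126 to 5912 and 4823 to 5555 under TGF-beta, and 7150 to 8309 for the interaction.

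Deviations of libraries with the same replicate number had correlations of 0.05 between WT and K36M under Repsox and 0.0025 under TGF-beta. No strong shift common to a replicate number was thus seen, which cannot show that the samples were unpaired. With the replicate number as a block, 2732 genes were shared higher and 2716 lower, and 3125 and 3101 were called with medium as a covariate. Each group had 2 libraries, and genes with few counts in WT have log2 fold changes that depend on single libraries.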
